A study of Homo sapiens with 33 samples.

Results

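MITF (microphthalmia-associated transcription factor) was profiled on chromatin in its E260A form, in the usual notation a change of glutamate to alanine at residue 260, and set against its wild-type form (WT). The comparison took the 3 peak lists titled E260A_DOX and the 3 titled WT_DOX, out of 33 lists in the series, of which 31 were distinct. All were libraries of the human melanoma line UACC-257, labelled as MITF knockdown and treated with doxycycline, so both groups carried the knockdown and the drug, and the groups differed by the labelled form of MITF. The labels give no isoform for the residue numbers, no expression level of the introduced protein and no statement on whether replicates were separate cultures, so the p-values measure the spread between these libraries, which may be technical. Each library started from 400000 cells and was made by CUT&Tag with an anti-HA antibody, in which the antibody steers a transposase that cuts and tags the DNA around an HA-tagged protein.

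MITF is a basic helix-loop-helix leucine zipper protein of the MiT/TFE family, which binds DNA as a dimer at E-boxes such as CACGTG and CATGTG. In melanocytes it is known for switching on pigment genes, and with its relatives TFEB and TFE3 it is known for driving genes of lysosomes, autophagy and nutrient sensing, many of which hold CACGTG near their start. Binding to pigment genes has often been tied to the E-box variant with a flanking T.

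Promoter windows from RefSeq show the sequence around the regions described most closely here. Each runs from 250 bases before to 50 bases after a RefSeq gene start (GRCh38.p14, the coordinates of hg38) and is written 5′ to 3′ on the strand of the gene, with every CACGTG and every CATGTG or its reverse complement CACATG in capitals. CLCN6, RAB7A, RRAGC, LAMTOR1 and GPNMB are shown because their peaks stood lower in the E260A lists, and TRPM1 and SCGB1D2 because theirs stood higher.
CLCN6 (chr1:11805941-11806240, plus strand): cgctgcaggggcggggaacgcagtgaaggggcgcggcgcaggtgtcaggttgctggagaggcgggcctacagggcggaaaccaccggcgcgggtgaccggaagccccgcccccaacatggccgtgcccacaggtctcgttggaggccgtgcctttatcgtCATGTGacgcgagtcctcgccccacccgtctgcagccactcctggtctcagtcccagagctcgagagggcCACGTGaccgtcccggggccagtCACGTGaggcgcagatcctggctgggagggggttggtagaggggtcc
RAB7A (chr3:128725933-128726232, plus strand): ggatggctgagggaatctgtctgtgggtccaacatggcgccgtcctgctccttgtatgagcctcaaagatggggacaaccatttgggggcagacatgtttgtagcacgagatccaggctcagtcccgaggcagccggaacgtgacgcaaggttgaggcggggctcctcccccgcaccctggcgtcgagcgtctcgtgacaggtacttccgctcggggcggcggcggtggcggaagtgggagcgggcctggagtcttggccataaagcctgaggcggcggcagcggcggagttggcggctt
RRAGC (chr1:38859723-38860022, minus strand): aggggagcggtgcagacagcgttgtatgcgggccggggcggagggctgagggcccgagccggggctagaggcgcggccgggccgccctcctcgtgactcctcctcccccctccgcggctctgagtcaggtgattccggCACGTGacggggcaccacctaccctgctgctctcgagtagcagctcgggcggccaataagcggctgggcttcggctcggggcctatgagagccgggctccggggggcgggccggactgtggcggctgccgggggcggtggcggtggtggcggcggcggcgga
LAMTOR1 (chr11:72103248-72103547, minus strand): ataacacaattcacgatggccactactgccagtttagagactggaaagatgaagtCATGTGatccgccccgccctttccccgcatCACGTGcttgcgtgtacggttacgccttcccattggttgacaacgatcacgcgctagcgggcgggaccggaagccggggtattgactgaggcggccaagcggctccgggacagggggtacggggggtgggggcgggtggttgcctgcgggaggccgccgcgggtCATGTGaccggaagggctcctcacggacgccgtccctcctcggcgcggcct
GPNMB (chr7:23246525-23246824, plus strand): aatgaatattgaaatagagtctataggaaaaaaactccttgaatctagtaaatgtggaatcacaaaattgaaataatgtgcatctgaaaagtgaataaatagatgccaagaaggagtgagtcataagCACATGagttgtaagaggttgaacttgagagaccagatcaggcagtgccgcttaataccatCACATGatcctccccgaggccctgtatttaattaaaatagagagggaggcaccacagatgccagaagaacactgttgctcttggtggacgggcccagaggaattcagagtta
TRPM1, a start inside the gene (chr15:31101676-31101975, minus strand): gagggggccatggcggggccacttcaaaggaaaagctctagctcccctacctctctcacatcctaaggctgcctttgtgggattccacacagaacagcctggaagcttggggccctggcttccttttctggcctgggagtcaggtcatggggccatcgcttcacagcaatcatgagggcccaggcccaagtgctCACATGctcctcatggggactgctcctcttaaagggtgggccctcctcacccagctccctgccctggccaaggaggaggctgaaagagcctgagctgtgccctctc
SCGB1D2 (chr11:62241989-62242288, plus strand): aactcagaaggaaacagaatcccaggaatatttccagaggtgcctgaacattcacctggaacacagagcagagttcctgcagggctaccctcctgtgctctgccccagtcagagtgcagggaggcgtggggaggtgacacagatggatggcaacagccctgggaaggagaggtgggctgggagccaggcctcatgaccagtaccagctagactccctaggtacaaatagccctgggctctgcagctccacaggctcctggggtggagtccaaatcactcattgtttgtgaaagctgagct
The CLCN6 window holds 2 copies of CACGTG and 1 of CATGTG, the RRAGC window 1 of CACGTG, and the LAMTOR1 window 1 of CACGTG and 2 of CATGTG. The GPNMB and TRPM1 windows hold CACATG alone, in 2 copies and 1 copy. None of these letters stands in the RAB7A or SCGB1D2 window.

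The files list peaks called in each library alone. E260A libraries listed 185306 to 197263 peaks, against 193462 to 227330 in WT. Depth, recovered from the lists as the background read pileup, was 0.895 ± 0.0633 in E260A and 1.15 ± 0.0637 in WT (SD, n = 3 each), and at most 0.03 in the 3 Empty control libraries. Since peak scores grow with depth, peaks were compared by rank. In each list the 50000 peaks of highest −log10 q were ranked from 1, the strongest, and a region with no peak among them was given the next rank after the last. A difference is the mean −log2 rank in E260A minus that in WT, so a positive value means a place nearer the top in E260A, and 1 unit is a doubling of rank. Such ranks are relative within a list, and cannot tell gain at some regions from loss at others. Over 41037 regions the log2 ranks of E260A libraries correlated with each other at r = 0.945 to 0.953, those of WT libraries at 0.966 to 0.972, and those of an E260A with a WT library at 0.803 to 0.834, as a description over regions that share libraries.

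E260A MITF and WT MITF ranked many regions differently. Of the 41037 regions tested with limma, 16406 (40.0%) passed a Benjamini-Hochberg adjusted p of 0.05. Of all regions, 9763 (23.8%) stood higher in E260A and 6643 (16.2%) stood lower, with a median difference of 0.07 over all. When summits within 150 bp were joined in place of overlapping peaks, 10163 stood higher and 10737 lower, so the balance between the directions rested on how regions were drawn. The median difference was 0.98 among the higher regions and −0.91 among the lower ones. E260A and WT ranks did not overlap in 9596 of the higher and 6488 of the lower regions, against 21343 (52.0%) of all regions. Among regions not called, 5259 (21.4%) had ranks that did not overlap. The call itself favours ranks that stand apart, so these counts add little to it. No WT library ranked 3231 of the higher regions, and no E260A library ranked 1016 of the lower ones, so these entered the test through 1 group alone and their direction was fixed by the filter. Among the 25404 regions ranked in all 6 libraries, 4976 (19.6%) stood higher and 4460 (17.6%) lower.

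Single libraries kept their own group's regions. Among its 10000 strongest peaks an E260A library held 80.2%, 80.3% and 80.0% of the regions shared by pairs of WT libraries, against 95.3%, 95.5% and 92.5% for WT libraries scored on the pair without themselves. Conversely, E260A libraries held 92.2% ± 0.724 of the regions shared by E260A pairs, against 76.9% ± 2.05 in WT (SD, n = 3 each). Both differences separated the groups fully, with an exact two-sided permutation p = 0.1, the smallest that 3 against 3 libraries allow. At a −log10 q of at least 5, E260A listed 109238 ± 2724 peaks and WT 94923 ± 2469 (SD, n = 3 each; exact permutation p = 0.1), though without that threshold the means were 191129 in E260A and 207353 in WT.

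E260A lists put less weight on gene starts. The share of the 10000 strongest peaks with a summit within 1000 bp of a protein-coding gene start was 36.9%, 39.1% and 34.7% in the E260A libraries, against 42.2%, 43.5% and 45.2% in the WT libraries (exact two-sided permutation p = 0.1, the smallest possible). Every E260A library lay below every WT library. Regions within 1000 bp of a start numbered 9822, of which 12.2% stood higher and 18.5% lower in E260A. Beyond 50000 bp the direction was the other way, with 29.1% of 13815 regions higher and 14.4% lower. Between these, 24.5% were higher and 17.8% lower at 1000 to 10000 bp (n = 5785), and 26.9% and 15.6% at 10000 to 50000 bp (n = 11615).

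A gradient was also seen among strong regions. These were chosen by the same ranks that were tested, which favours calls towards the group where a region is strong. Where either group had a mean rank of 2000 or better, 22.4% of the 954 regions within 1000 bp of a start stood higher in E260A and 36.4% lower. Of the 550 such regions beyond 50000 bp, 44.5% stood higher and 19.1% lower. The median distance to a start was 34522 bp for the higher regions, 16658 bp for the lower regions and 22044 bp over all regions.

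**Figure D1:**
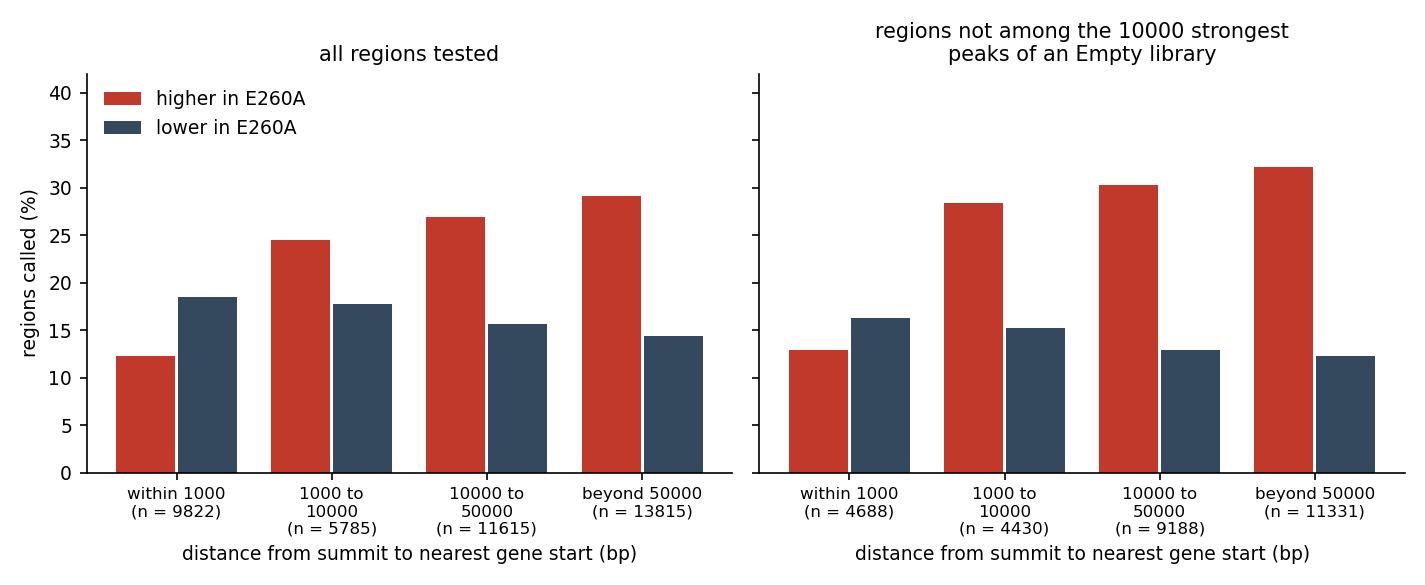
Share of regions (percent, y axis) that stood higher or lower in E260A than in WT, by distance of the region's summit from the nearest protein-coding gene start (x axis). Within 1000 bp 12.2% were higher and 18.5% lower, and beyond 50000 bp 29.1% were higher and 14.4% lower.

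The Empty lists moved with this pattern. Of the 10000 strongest E260A peaks, 53.0% ± 1.20 overlapped one of the 10000 strongest of any Empty library, against 61.5% ± 1.12 in WT (SD, n = 3 each). Among called regions, 15.2% of the higher and 39.6% of the lower ones did so, against 27.8% of all regions. With those regions taken out, 12323 of 29637 were called, 8303 higher and 4020 lower, and the gradient with distance remained: 12.9% higher and 16.3% lower within 1000 bp, against 32.1% and 12.2% beyond 50000 bp. Chromosomes differed too, with 35.3% of 553 regions higher on chromosome 21, 34.8% of 1401 on chromosome 20 and 32.3% of 1243 on chromosome 13, down to 12.8% of 1015 on chromosome X, where 20.2% were lower.

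Promoters that carry CACGTG were lower more often than those that lack it. A summit fell inside a promoter window of 300 bp in 7162 regions, and 934 of these windows held CACGTG, a palindrome that reads alike on both strands. Of the 934, 5.57% stood higher and 43.8% lower in E260A, with a median difference of −0.57. Of the 6228 windows that lack it, 14.0% stood higher and 13.9% lower. The contrast was smaller among regions of mean WT rank 2000 or better, a choice by WT rank that itself favours lower calls: 61.0% of the 172 with CACGTG and 40.1% of the 404 that lack it were lower. Put the other way, CACGTG stood in 5.65% of the windows of higher regions (52 of 921), in 32.2% of those of lower regions (409 of 1272), in 9.52% of those not called, and in 7.27% of all 34961 promoter windows of the reference table. With regions among the strongest Empty peaks left out, it stood in 7.33% of the higher and 34.3% of the lower.

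Over all promoter regions the lower share was larger with the flanking bases. TCACGTG, on either strand, stood in 563 of these windows, of which 1.78% stood higher and 58.4% lower. The palindrome TCACGTGA stood in 184, of which 1 stood higher and 127 (69.0%) lower, at a median of −1.04. These longer motifs contain the shorter one, so their windows are nested. Among regions of mean WT rank 2000 or better the lower shares lay closer together. They were 61.0% of 172 with CACGTG, 66.7% of 132 with TCACGTG and 68.1% of 47 with TCACGTGA. Of the regions that lack each motif, 40.1%, 40.3% and 44.4% were lower there. The part of WT rank in the flank difference was not tested. For CATGTG or CACATG the windows were less uneven. It stood in 9.34% of the windows of higher and 10.8% of those of lower regions, and in 11.1% of all windows. Of the 98 windows with TCATGTGA or its reverse complement, 11 stood higher and 49 lower, with a median of −0.68. Of the 7064 that lack it, 12.9% stood higher and 17.3% lower. At mean WT rank 2000 or better 52.4% of the 21 with it were lower, against 46.1% of the 555 that lack it. The lower shares there were 53.6% of 28 with TCATGTG, against 45.99% of the 548 that lack it. For CATGTG they were 47.8% of 69 and 46.2% of 507. Letters at summits outside promoter windows were not analysed here.

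Seen by library, 15.8%, 15.0% and 15.2% of the promoter peaks among the 10000 strongest held CACGTG in E260A, against 20.1%, 20.3% and 20.2% in WT (exact two-sided permutation p = 0.1, the smallest possible). Among the 1000 strongest the shares were 22.7% ± 1.86 in E260A and 31.8% ± 2.02 in WT, and among the 50000 strongest 12.5% ± 0.0701 and 12.9% ± 0.0968 (SD, n = 3 each). The groups did not overlap at any of the 3 lengths, and the gap was widest at the top of the lists.

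**Figure D2:**
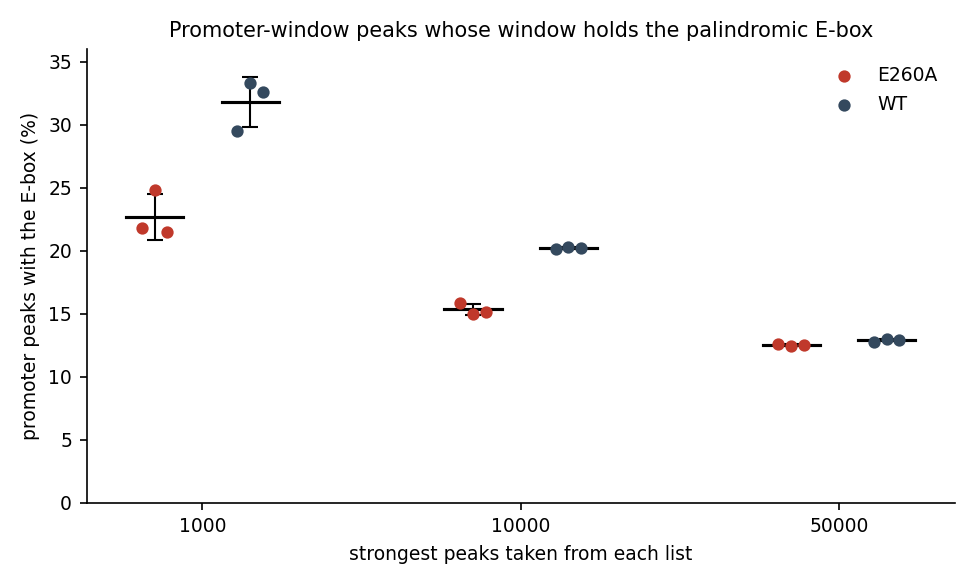
Percent of promoter peaks whose 300-bp window holds CACGTG (y axis) among the strongest peaks of each library, by list length (x axis), with a point per library and lines for the group means. E260A sat at 15.0% to 15.8% for 10000 peaks, below WT at 20.1% to 20.3%.

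The regions named for the largest loss of rank lay at gene starts. They were taken from lower regions with non-overlapping ranks and a gene start within 10000 bp, so distant regions could not enter. Of all lower regions, 27.4% lay within 1000 bp of a start, against 27.6% of regions not called, and 29.9% lay beyond 50000 bp. The 10 named lower regions, each named by its nearest gene, all had summits within 1000 bp of it. A summit fell in a promoter window in 6 of them, and 3 of the 6, at CLCN6, THAP8 and LONP1, had CACGTG there. They were picked for the size of this difference, so their values are a description. CLCN6, which encodes a chloride and proton exchanger of late endosomes, led them (chr1:11805520-11806571). Its ranks were 327, 427 and 647 in E260A, against 15, 17 and 8 in WT, a difference of −5.14 (SE 0.44, limma adjusted p = 9.63e-06). It stood at the very top of the WT lists and well below it in the E260A lists.

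RAB7A, a small GTPase of late endosomes and lysosomes, had ranks of 4998, 2772 and 4600 in E260A, against 212, 201 and 140 in WT (chr3:128725877-128727028; −4.46, SE 0.32, adjusted p = 2.86e-06). PIP4P1, a phosphatase of lysosomal phosphoinositides, had 530, 759 and 1013 in E260A, against 37, 39 and 42 in WT, a difference of −4.24. ZNFX1, a helicase of antiviral defence, had 123, 98 and 309 in E260A, against 17, 11 and 9 in WT, a difference of −3.70. The groups were far apart at each of these, as ranks that do not overlap were a condition of the choice. The remaining lower regions were PPP1R10 (−4.54), which encodes a targeting subunit of protein phosphatase 1, UNK (−4.03), an RNA-binding protein, THAP8 (−3.94), ST13 (−3.91), an HSP70 co-chaperone, LONP1 (−3.86), a mitochondrial protease, and LRRC58 (−3.75). All 10 also overlapped one of the 10000 strongest peaks of an Empty library. The CLCN6 region had ranks of 31, 1125 and 2510 in the Empty lists, so signal was listed there in the control too. Scores in the Empty lists were low, with a −log10 q of 3.94 to 5.66 at peak 1000 and 1.63 to 1.87 at peak 10000.

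The regions named for the largest gain of rank lay mostly away from starts. They were drawn by the same rule, with a gene start within 10000 bp. Of all higher regions, 12.3% lay within 1000 bp of a start and 41.2% beyond 50000 bp. Of the 10 named higher regions, 1 had its summit within 1000 bp of the nearest gene start, and the other 9 had no promoter window to read. SCGB1D2, which encodes a secretoglobin, led them (chr11:62241974-62242778). Its ranks were 41, 92 and 79 in E260A, against 7835, 11012 and 11561 in WT, a difference of 7.22 (SE 0.35, limma adjusted p = 5.51e-07). A region 5372 bp from CRYGC, a lens crystallin gene, had 78, 168 and 85 in E260A, against 9516, 13517 and 14086 in WT (chr2:208134873-208135531; 6.88, SE 0.34, adjusted p = 5.51e-07). Both were near the top of all E260A lists and far down all WT lists.

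A region inside DRD2, the dopamine D2 receptor gene, had ranks of 503, 416 and 650 in E260A, against 20360, 28373 and 39433 in WT, a difference of 5.78. A region inside ADTRP, which encodes a fatty acid ester hydrolase, had 38, 48 and 45 in E260A, against 1432, 1429 and 2317 in WT, a difference of 5.27. Others lay near MPG (4.75), a DNA glycosylase gene, TRMT61A (4.63), a tRNA methyltransferase gene, TMED6 (4.58), LOC112267968 (4.49) and OR7C2 (4.39), an olfactory receptor gene. Many of these genes are known for other tissues, and no expression was measured in these files. The SCGB1D2 region overlapped one of the 10000 strongest peaks of an Empty library, and 8 of the 10 regions did not.

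**Figure D3:**
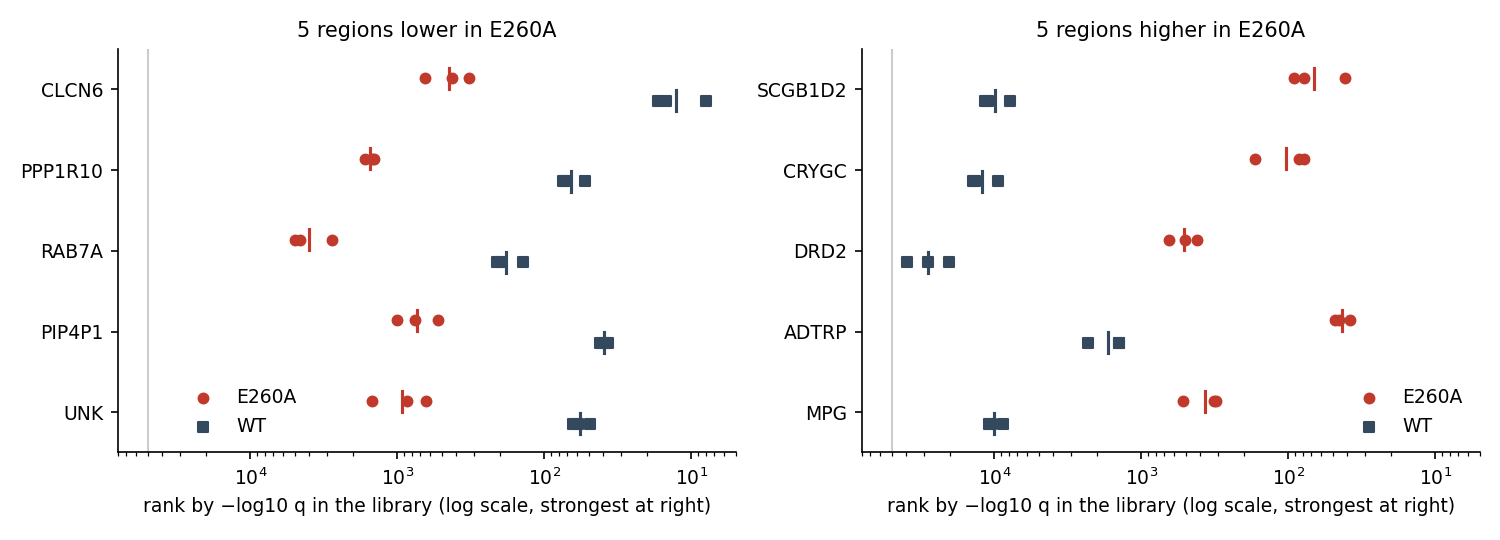
Rank in the peak list (log scale, 1 the strongest) of the 5 higher and 5 lower named regions of largest difference. Each point is a library of E260A or WT. At SCGB1D2 E260A ranks were 41 to 92 against 7835 to 11561 in WT, and at CLCN6 327 to 647 in E260A against 8 to 17 in WT.

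Rank by q follows how many reads pile up as well as how far they exceed their surroundings. At CRYGC the recovered summit pileup was 426, 405 and 404 reads in E260A, against 108, 82 and 82 in WT, while the authors' fold over local background was 21.0, 19.4 and 20.9 in E260A, against 19.9, 16.3 and 16.4 in WT. The local background moved with the pileup, 4.57 times as high in E260A as in WT, with a pileup ratio of 4.54 and a fold ratio of 1.16. SCGB1D2 had ratios of 4.11 for pileup and 1.17 for fold, and ADTRP 1.72 and 1.02. OR7C2 had 8.03 and 2.40, so both its pileup and its fold were above those of WT.

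At CLCN6 the pileup was 426, 452 and 359 in E260A, against 1181, 1098 and 1271 in WT, a ratio of 0.348, and the fold 11.9, 11.1 and 10.9 in E260A, against 15.0, 15.0 and 15.3 in WT, a ratio of 0.749. RAB7A had ratios of 0.288 for pileup and 0.761 for fold. Local background around the summit was 0.459 and 0.365 times that of WT at these regions. With peaks ranked by pileup all 20 named regions kept their call, whereas with peaks ranked by fold 12 kept it, 7 did not pass and 1, ADTRP, had a difference of −0.25. Over all regions 17892 of 36902 were called by pileup and 8776 of 45029 by fold. The part of local background in the rank differences was not tested.

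**Figure D4:**
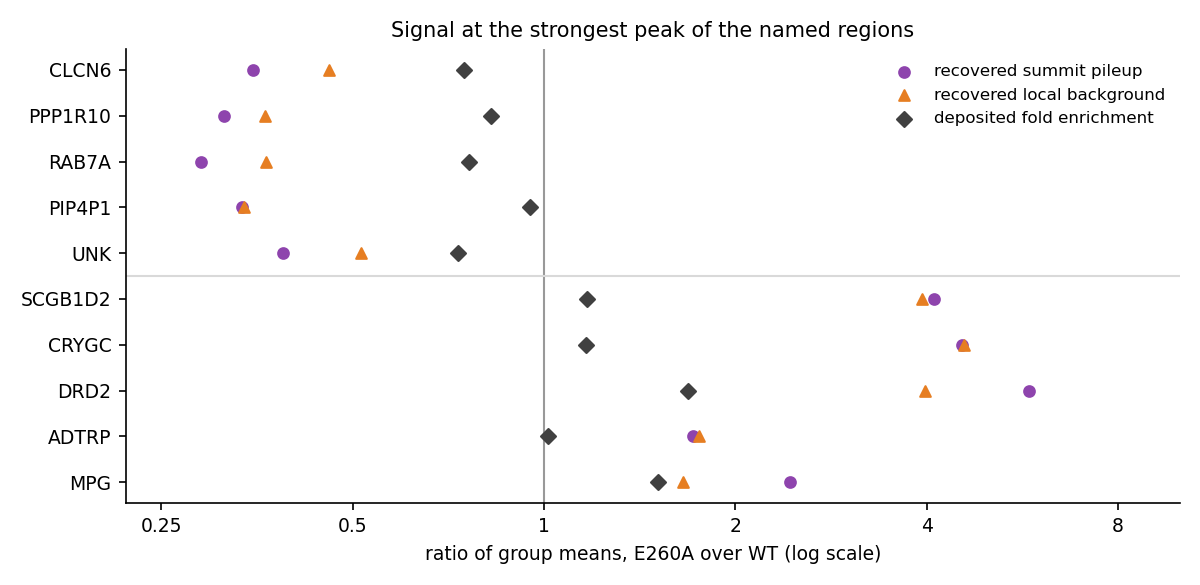
Ratio of E260A to WT group means (log axis) for the deposited fold enrichment, the recovered summit pileup and the recovered local background at the same 5 higher and 5 lower regions. At CRYGC pileup and background were 4.54 and 4.57 times those of WT with a fold ratio of 1.16, and at CLCN6 they were 0.348 and 0.459 with a fold ratio of 0.749.

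Genes were scored by their best-ranked summit within 5000 bp of a start. Of 12045 genes tested, 4110 (34.1%) were called, 1717 (14.3%) higher and 2393 (19.9%) lower in E260A, with a median difference of −0.07. With peaks ranked by fold, 338 were higher and 961 lower and the median over all genes was −0.21. The region behind the best summit was called in the same direction for 3857 of the 4110 genes, in the opposite one for 2, was not called for 247 and had no tested region for 4. A gene's best peak can lie in different regions in different libraries. The gene value differed by more than 0.005 from that of the region with the best peak at 25 of the 165 list genes tested, and both are given where the gap bears on a named gene. The gene counts of each list, with peaks ranked by q in all 6 libraries, are read against the 14.3% and 19.9%.

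The nutrient sensing genes mostly lost rank. Their products sit on the lysosome and relay amino acid supply to the kinase mTOR. Of 14 tested, 1 was higher and 9 lower, with a median of −0.75. RRAGC, a Rag GTPase, had ranks of 216, 277 and 332 in E260A, against 35, 26 and 50 in WT (−2.92, SE 0.39, limma adjusted p = 1.21e-05). FNIP1, the folliculin partner, had 282, 372 and 609 in E260A, against 86, 71 and 41 in WT (−2.67, SE 0.40, adjusted p = 4.11e-05). LAMTOR1, the membrane anchor of the Ragulator complex, had a geometric mean rank of 2832 over the 3 E260A libraries, against 280.0 over the 3 WT libraries (−3.34, SE 0.29, adjusted p = 9.21e-08).

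No E260A library reached the WT range at these 3 genes, which the call itself favours, as 97.7% of all lower regions had ranks apart. The windows of RRAGC and LAMTOR1 printed above hold CACGTG, as did the windows of 5 of the 9 lower genes. RRAGB fell by 1.39. RRAGA was higher by 0.75 and did not pass without E260A replicate 1 or 2 or WT replicate 2 or 3. At RRAGC the fold was nearly alike, with 21.2, 20.4 and 21.1 in E260A, against 21.7, 21.1 and 18.8 in WT, while the pileup was 340, 356 and 302 reads in E260A, against 823, 840 and 790 in WT. With peaks ranked by fold, 1 of the 14 genes was lower and none higher, and by pileup 9 were lower and 1 higher. Over all genes 7.77% were lower and 2.73% higher by fold, and 22.4% and 20.7% by pileup.

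Genes of lysosomal enzymes, membrane proteins and the proton pump (V-ATPase) followed. Of 22 tested, none was higher and 15 were lower, with a median of −0.97. LAMP1, an abundant lysosomal membrane protein, had ranks of 21116, 18252 and 14982 in E260A, against 2779, 1847 and 3486 in WT (−2.78, SE 0.28, adjusted p = 4.77e-07). NEU1, a sialidase, had 420, 302 and 636 in E260A, against 81, 137 and 124 in WT (−1.96, SE 0.37, adjusted p = 0.00048). CTSA (protective protein/cathepsin A) differed by −1.99 and ATP6V0D1, a subunit of the membrane part of the pump, by −1.88.

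E260A and WT ranks stood apart at these 4 genes, which were picked from the called ones, so this adds little to the call. The 7 that did not pass included the channel MCOLN1 (0.33) and the exchanger CLCN7 (0.22). A promoter entry was found for 12 of the 22 genes, and 9 of the 12 held CACGTG. Of these 9, 6 were lower, and MCOLN1, CLCN7 and ACP5 (−0.64) did not pass. With peaks ranked by fold 4 of the 22 were lower, against 7.77% of all genes, and NEU1 and ATP6V0D1 had differences of 0.03 and 0.22. By pileup 14 were lower and 1 higher, against 22.4% and 20.7% of all genes.

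Among 12 autophagy genes none was higher and 5 were lower, with a median of −0.42. RAB7A, given above, led them. GABARAPL1, which is coupled to autophagosome membranes, differed by −2.02, SQSTM1, the cargo receptor p62, by −1.39, and VPS18, a tethering subunit at lysosomes, by −1.30. WIPI1, an early autophagy protein, had ranks of 46, 61 and 70 in E260A, against 58, 61 and 128 in WT, and did not pass (0.40, SE 0.42, limma adjusted p = 0.49). It ranked no further down than 128 in any E260A or WT library. Without E260A replicate 1, VPS18 no longer passed.

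The pigment genes went mostly the other way. Of 16 tested, 10 were higher and 3 lower, with a median of 0.87. TRPM1, a melanocyte cation channel, had a region (chr15:31101531-31103208) over the start inside the gene whose window is printed above, with ranks of 166, 143 and 198 in E260A, against 2962, 2009 and 2115 in WT (3.80, SE 0.30, limma adjusted p = 6.00e-06). Nearer the upstream start a second region (chr15:31157599-31158518) had 1404, 1690 and 1722 in E260A, against 2192, 2059 and 1815 in WT, and was not called. It held the best TRPM1 peak of WT replicates 1 and 3, so the gene value of 3.58 set different regions against each other. PMEL, the fibril protein of melanosomes, had 102, 79 and 137 in E260A, against 1252, 1276 and 1525 in WT (3.70, SE 0.33, adjusted p = 1.19e-07).

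The PMEL region (chr12:55970540-55971166) lay 4133 bp from the PMEL start and 1947 bp from that of CDK2, a cell cycle kinase gene next to it, and was the best-ranked region of PMEL in all 6 libraries and of CDK2 in the E260A libraries. Within 1000 bp of its start PMEL differed by −0.052, which was not called. Another region 1254 bp from the start (chr12:55965129-55965763) was lower (−0.85, SE 0.27, limma adjusted p = 0.0239). At the region 4133 bp away the fold was 11.6, 11.8 and 11.4 in E260A, against 8.13, 7.90 and 7.61 in WT. The pileup there was 556, 630 and 507 in E260A, against 560, 529 and 522 in WT. Here the fold stood apart and the pileup overlapped, the opposite of CRYGC. MLPH, an adaptor in melanosome transport, was called higher by the gene rule (1.60), and its nearby regions moved both ways. One (chr2:237482947-237483766) had ranks of 691, 844 and 258 in E260A, against 1755, 2531 and 2005 in WT (1.96, SE 0.40, limma adjusted p = 0.00261). The one beside it (chr2:237482297-237482887) had 3699, 3477 and 3629 in E260A, against 1247, 1678 and 2759 in WT, and was lower (−1.01, SE 0.30, limma adjusted p = 0.0203).

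Smaller gains were seen at SLC24A5 (1.53), a melanosomal exchanger, RAB27A (1.32, with 2.07 at the region of its best peak), which carries melanosomes, MC1R (1.13), the melanocortin receptor, OCA2 (0.96), a melanosomal transporter, GPR143 (0.77), a melanosomal receptor, and MYO5A (0.72), a melanosome motor. MLANA, a melanosomal protein, was called higher by the gene rule (2.40), whose limit of 5000 bp split one region: its E260A summit lay 4990 bp from the start and its WT summit 5022 bp. That region (chr9:5895529-5896531) had ranks of 1927, 2705 and 1867 in E260A, against 603, 827 and 1386 in WT, and was itself lower (−1.27, SE 0.33, limma adjusted p = 0.0101).

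The 3 pigment genes that fell did so at their starts. GPNMB, a melanosomal and lysosomal glycoprotein, had ranks of 3520, 5634 and 5879 in E260A, against 770, 783 and 1096 in WT (−2.49, SE 0.30, adjusted p = 3.51e-06). DCT, the enzyme dopachrome tautomerase, had 411, 500 and 385 in E260A, against 120, 240 and 164 in WT (−1.36, SE 0.35, adjusted p = 0.00554). TYRP1, a tyrosinase-related enzyme, had 40015, 42884 and 40016 in E260A, against 20540, 26093 and 29287 in WT (−0.71, SE 0.19, adjusted p = 0.00759). In these 3 genes every E260A library ranked the peak further down than every WT library, which the call itself favours.

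TYR, which encodes tyrosinase, the enzyme that starts melanin synthesis, had ranks of 6070, 8218 and 9889 in E260A, against 4418, 4178 and 6912 in WT and did not pass (−0.65, adjusted p = 0.0813). SLC45A2 (0.75) and RAB38 (0.78) did not pass either. A further TYR region 1891 bp from the start (chr11:89175543-89176357) was lower (−1.27, SE 0.28, limma adjusted p = 0.00379). The higher calls of the pigment list were lost with peaks ranked by fold: none of 15 tested was then higher and 2 were lower (median −0.01). Over all genes 2.73% were higher and 7.77% lower by fold. By pileup 12 were higher and 4 lower, against 20.7% and 22.4% of all genes. With summits within 1000 bp of the start 6 were higher and 4 lower, against 12.2% and 19.6% of all genes. Without WT replicate 1, 7 were higher and 3 lower, against 11.7% and 16.4% of all genes.

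**Figure D5:**
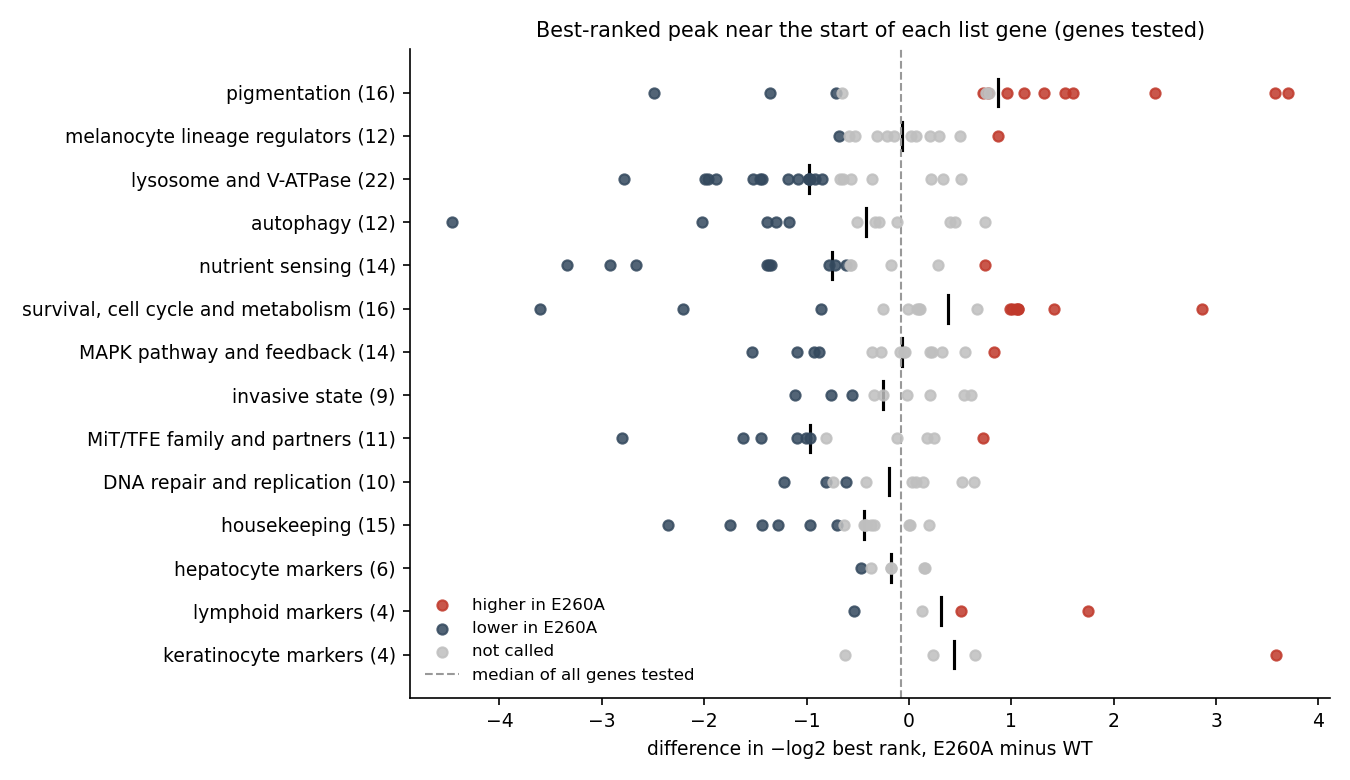
Difference in −log2 rank (E260A minus WT) of every tested gene in each list, with a point per gene and a bar at the list's median. Called genes are coloured by direction and genes not called are light grey. The lysosome list centres at −0.97, nutrient sensing at −0.75 and pigmentation at 0.87, against −0.07 over all genes.

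Survival, cell cycle and metabolism genes were split, with 7 of 16 higher and 3 lower and a median of 0.39. APEX1, a DNA repair endonuclease gene, had ranks of 9659, 5965 and 10151 in E260A, against 1017, 551 and 583 in WT (−3.60, SE 0.31, limma adjusted p = 9.21e-08). CDK4, a kinase of the G1 phase, had 319, 667 and 193 in E260A, against 29, 113 and 127 in WT (−2.21, SE 0.51, adjusted p = 0.00248). TBX2, a T-box repressor gene, differed by −0.86. The higher genes included BIRC7 (1.42), an inhibitor of apoptosis, and BCL2A1 (1.07, with 1.32 at the region of its best peak) and MCL1 (1.06), relatives of BCL2.

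CDK2 was called higher by the gene rule (2.86), which set the PMEL region in E260A against another region in WT. That region, nearer the CDK2 start (chr12:55973418-55974142), had ranks of 5791, 4834 and 4366 in E260A, against 668, 727 and 877 in WT, and was lower (−2.72, SE 0.26, limma adjusted p = 2.04e-05). Regions a few kilobases apart at this locus thus moved in opposite directions.

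Among relatives and partners of MITF, 1 of 11 was higher and 6 were lower, with a median of −0.97. BHLHE40, an E-box repressor gene, had ranks of 1211, 1656 and 2158 in E260A, against 290, 280 and 157 in WT (−2.80, SE 0.34, adjusted p = 4.37e-06). MXI1 (−1.62), MAX (−1.44) and MNT (−1.09), members of the MYC network, were lower and TFEB was higher (0.73). The region behind the best MNT peak was not called on its own. TFEB did not pass without E260A replicate 2 or WT replicate 2, and MNT without E260A replicate 3 or WT replicate 2 or 3.

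Of 12 melanocyte lineage regulators tested, 1 was higher, SOX9 (0.87), and 1 lower, PAX3 (−0.68), with a median of −0.07. MITF itself, at 0.20 (with 0.41 at the region of its best peak), and SOX10, at −0.22 (with −0.008 there), did not pass. The MITF regions nevertheless moved unevenly. Those at chr3:69740704-69741414 (−1.17, SE 0.22, limma adjusted p = 0.00164) and chr3:69936021-69936764 (−0.74, SE 0.22, limma adjusted p = 0.0201) were lower. That at chr3:69937691-69938414 (0.08) was not called. SOX9 did not pass without WT replicate 2, and PAX3 passed only with all 3 WT libraries and both E260A replicates 2 and 3. Of 14 MAPK pathway genes, 1 was higher, SPRED2 (0.83, with 1.56 at the region of its best peak), and 4 were lower, SPRY4 (−1.54), SPRED1 (−1.10), ETV4 (−0.93) and MAP2K1 (−0.87). Apart from ETV4 and MAP2K1, these genes encode dampers of the pathway. SPRED2 did not pass without E260A replicate 1 or WT replicate 2, nor ETV4 without WT replicate 2.

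Of 9 genes of the invasive melanoma state tested out of 15, none was higher and 3 were lower, among them CCN1 (−0.76) and AXL (−0.56), and without E260A replicate 3 only 1 was. Of 10 DNA repair and replication genes none was higher and 3 were lower, BRCA2 (−1.22), RPA1 (−0.81) and EME1 (−0.61), which no E260A library ranked, and without WT replicate 1 or 2 only 1 was. AXL, CCN1 and RPA1 each failed to pass without E260A replicate 3, among 3 to 5 libraries whose absence ended the call.

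Housekeeping genes also leaned down: none of 15 tested was higher and 6 were lower, with a median of −0.44. POLR2A, the large subunit of RNA polymerase II, differed by −2.36, B2M by −1.75, PPIA by −1.43 and GUSB by −1.28. PGK1 held rank 1 in all 6 libraries. The lower counts of the other lists stand beside this one, and the part of promoter signal common to all genes in them was not tested.

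Genes of other cell types were mostly unranked. Of 12 hepatocyte markers 6 were tested, none higher and 1 lower, TF (−0.47), which passed only with all of E260A replicates 1 to 3 and WT replicates 2 and 3. Of 12 lymphoid markers 4 were tested, with CD3E (1.75) and CD8A (0.51) higher and CD4 (−0.53) lower. No WT library ranked CD8A, which did not pass without any WT library in turn, nor CD4 without E260A replicate 2 or 3 or WT replicate 1 or 2. Of 12 keratinocyte markers 4 were tested, and 1 was higher. That was IVL, which encodes involucrin, with ranks of 4422, 3208 and 5117 in E260A, while no WT library ranked it. IVL, CD8A and EME1 passed the filter through 1 group alone, which fixed their direction. Its summit lay 2144 bp from the start, and the WT lists held peaks there of 9, 8 and 8 reads, against 169, 196 and 146 reads in E260A.

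E260A was also set against Q261A, N278D and Y253A, the variants nearest to it in depth and in recovery of WT regions. These fits share the E260A libraries, so their calls are not independent of each other or of the fit against WT. Against Q261A, the neighbouring residue, 4627 of 41443 regions (11.2%) were called, 6.86% higher and 4.30% lower in E260A. Against N278D 8386 of 42570 (19.7%) were called, 9.45% higher and 10.2% lower. Against Y253A 4460 of 41433 (10.8%) were called, 6.03% higher and 4.74% lower. By genes, 501 of 11922 (4.20%) were called against Q261A, 3.23% higher and 0.973% lower. Against N278D 623 of 11941 genes (5.22%) were called, 3.61% higher and 1.61% lower, and against Y253A 534 of 11808 (4.52%), 3.61% higher and 0.915% lower.

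Over the 14 lists, 5 of 164 genes tested were higher and 5 lower against Q261A, 8 of 164 were higher and 2 lower against N278D, and 3 of 163 were higher and none lower against Y253A. Of the 22 lysosome genes none was called against any of the 3 variants, with medians of −0.22 against Q261A, 0.17 against N278D and 0.27 against Y253A. Of the 16 pigment genes 1 was lower against Q261A and none was called against N278D or Y253A. Nutrient sensing gave 1 higher and 1 lower gene of 14 against Q261A, 1 higher against N278D and none against Y253A. A gene that misses the threshold need not be alike in the variants.

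The genes called against the variants came from several lists. WIPI1 had a geometric mean rank of 58.1 in E260A, against 179 in Q261A, 332 in N278D and 233 in Y253A. It was higher than in N278D (2.51, SE 0.42, limma adjusted p = 0.000747) and in Y253A (adjusted p = 0.0069), and did not pass against Q261A (1.63, adjusted p = 0.0828). VPS11, another tethering subunit, was higher than in N278D (1.61), and RAB7A lower than in Q261A (−1.70). MXI1 (−1.36) and BHLHE40 (−1.46) were the 2 of 11 relatives and partners called against Q261A. KRT14, a keratin of basal keratinocytes, was higher than in Q261A (1.12) and N278D (1.32), and with IVL it made 2 of 4 keratinocyte markers called there.

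Among the regions named for their difference from WT, more of the higher than of the lower ones were called against the variants. Over all regions 6.86% were higher and 4.30% lower against Q261A, 9.45% and 10.2% against N278D, and 6.03% and 4.74% against Y253A. Of the 10 higher regions of largest difference, E260A was higher than Q261A at 10, than N278D at 9 and than Y253A at 6, and LOC112267968 was lower than in N278D (−1.40). Of the 10 lower regions, E260A was lower than Q261A at 6, than N278D at 1 and than Y253A at 1. The CLCN6 region had a geometric mean rank of 449 in E260A, against 154 in Q261A, 629 in N278D, 626 in Y253A and 12.7 in WT, and was called against Q261A (limma adjusted p = 0.0399) but not against N278D (0.387) or Y253A (0.446). SCGB1D2 had 66.8 in E260A, against 242 in Q261A, 356 in N278D, 135 in Y253A and 9992 in WT. DRD2 had 514 in E260A, against 6277 in Q261A, 11108 in N278D, 3455 in Y253A and 28348 in WT. IVL had no ranked peak in N278D or Y253A. These regions were chosen for their difference between E260A and WT, so the order is a description of the libraries.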

How the data were processed

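Peaks were deposited as 1 list per library. The submitters' processing notes name MACS2, Bowtie2 2.3.4.3, bcl2fastq 2.20.0.422 and the genome build hg38. The MACS2 version, its control library and peak filters are not given in the sources used here. Each deposited peak has a fold enrichment, a linear ratio to local background, and 2 deposited scores, the −log10 of the p-value and of the q-value, the lowest −log10 p being 2.00. Names follow the labels.

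Peaks on chromosomes 1 to 22 and X were used. The 50000 peaks of highest −log10 q were ranked in each list, and overlaps of at least 1 bp were merged over the 6 libraries. Regions or genes ranked in at least 3 of 6 libraries were tested with limma 3.58.1 (R 4.3.3; eBayes with trend, two-sided, Benjamini-Hochberg over the whole table, threshold 0.05). The script was tested on simulated data. Of 19974 protein-coding genes, 4162 had no start entry and both gene ends were used, and promoter windows came from RefSeq. Summit pileup and local background were recovered from fold and p. Library shares used the 10000 strongest peaks and exact permutation tests over every arrangement of the libraries. Python 3.11.15, numpy 2.4.6, scipy 1.17.1, pandas 2.3.3 and matplotlib 3.10.9 were used.

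Depth is known only as background pileup; lists were also thinned to 0.835. Named regions were the 10 higher and 10 lower of largest difference, with non-overlapping ranks and a gene within 10000 bp. Named genes were up to 4 called per list and direction and the 6 of best WT rank. Of these, 1 region and 1 gene are not reported here. Genes named outside this rule were chosen after their values were seen. The members and the 14 gene lists were chosen with earlier results of these data known. Ranking by pileup and leaving out Empty regions were chosen after seeing the data.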

Additional observations from a re-analysis of the deposited data

How the results depend on the processing

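Regions called for E260A against WT numbered 8079 with 20000 peaks ranked per list, 26433 with 100000, 8776 with ranking by fold and 9436 when ranked in all 6 libraries, against 16406; genes called numbered 1299 by fold, against 4110. For E260A against Q261A, N278D and Y253A the counts were 1916, 3410 and 2138 with 20000 peaks, 7827, 14349 and 6764 with 100000, and 449, 2363 and 8 by fold. Thinned to one depth, 14907 regions and 3705 genes were called. Leaving out a library gave 11068 to 12512 regions and 3014 to 3633 genes. The same replicate number did not pair libraries (r of deviations −0.0156, 0.0113 and −0.0883); with a replicate block 16927 regions and 4035 genes were called against WT, and 4466, 8869 and 5742 regions against Q261A, N278D and Y253A.

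The difference in the share of WT regions found (−14.3 percentage points) was −26.6 in the 1000 and −7.46 in the 50000 strongest peaks, and −14.3 to −14.2 without an E260A library; a WT library cannot be left out of it. The difference in E260A regions was 26.2 in the 1000 strongest. That at gene starts was −9.60 in the 1000 strongest and −7.82 to −5.62 without a library. The CACGTG share differed by −9.12 in the 1000 strongest, −0.399 in the 50000 strongest, −10.1 without Empty peaks, −4.11 by fold and −5.13 to −4.72 without a library. The log2 ratio of peak numbers (0.20) was −0.11 at the authors' threshold (exact permutation p = 0.2), 0.089 at −log10 q of 20, 0.37 when thinned with −log10 p of at least 8, and 0.18 to 0.22 without a library.

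Differences changed sign by fold at the ADTRP region (−0.25) and at the genes ATP6V0D1 (0.22), BIRC7 (−0.22), NEU1 (0.033), SQSTM1 (0.13) and TFEB (−0.50). Within 1000 bp of the start they did at CDK2 (−2.77), MLANA (−0.92), PMEL (−0.052) and SQSTM1 (0.14), and with summits in the gene body at AXL (0.10), MAX (0.88), MLANA (−1.27) and PAX3 (0.17). The cause was not tested. Over 17 settings 315 of 327 values at named regions kept their call, and over 15 settings 711 of 818 at named genes. In every setting that gave a value, 11 of 20 regions and 20 of 56 genes kept it. By fold, 20 named genes kept their call and 29 did not pass. The lower named regions had no value with Empty regions left out. Motifs at summits were not run, for want of a genome. Libraries of 3 a group limit precision, and a region unranked in a list need not be unbound.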
